A study of Sus scrofa with 18 samples.

Results

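Reelin signalling and the Cajal-Retzius neurons that secrete reelin were examined through 7 genes, found by their names among the 31908 genes counted in whole fetal pig brain. The genes were RELN (the secreted ligand), VLDLR and LRP8 (its receptors), DAB1 (the adapter inside the responding neuron), and TP73, LHX1 and LHX5 (transcription factors that mark Cajal-Retzius neurons). Each name was found in 1 row, and none was missing. All 7 passed the filter on low counts that kept 16325 genes for testing.

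Reelin is a large extracellular glycoprotein that guides migrating neurons and the layering of the cerebral cortex and cerebellum. It binds the lipoprotein receptors VLDLR and LRP8 (also called ApoER2), whose cytoplasmic tails hold DAB1, and SRC-family kinases then phosphorylate DAB1 to pass the signal on before it is degraded. In the early cortex the main source is the Cajal-Retzius neuron of the marginal zone, a transient cell that is largely lost as development proceeds, while cerebellar granule cells and, later, GABAergic interneurons also make reelin. LHX1 and LHX5 are also active in Purkinje cells and in neurons of the hindbrain and spinal cord, and TP73 in multiciliated cells, so in whole brain none of these genes reports on Cajal-Retzius cells alone.

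The study asked how gene expression in the fetal brain differs between the sexes and changes with gestation. Brains came from untreated fetuses of Landrace x Large White gilts inseminated with LR-M6 semen, and were taken at gestation day (GD) 45, 60 or 90. Each day had 3 female and 3 male fetuses, 18 in all. The labels name no treatment or altered genotype for any group. Whole brains were homogenized, so all regions of the brain are mixed in every library. By shared day and litter size, each day had 3 litters that gave 1 female and 1 male each. Libraries were made from poly(A)-enriched RNA and held 15118843 to 19729783 reads counted on genes.

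Some libraries stood apart from the rest. Male GD45 replicate 17 and female GD60 replicate 15 were the farthest from the other fetuses of their groups, and the GD45 litter of 8 had brains of 0.6653 and 0.7135 in the labelled weight unit, below the other GD45 brains. Libraries also differed in where along a gene their reads fell. Over 3406 other genes with at least 10 exons, the median share of exon reads that fell 5′ of the midpoint of the summed exon length ranged from 13.7% in male GD45 replicate 17 to 37.6% in male GD90 replicate 10. The 3 GD90 males had 36.4%, 37.3% and 37.6%, above every other library, and the 3 GD90 females had 22.2%, 24.7% and 33.3%. This value is called the 5′ share.

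Levels were expressed as read counts scaled to the library total (CPM), or as FPKM, which also divides by gene length, where genes were compared with each other. In FPKM over the 18 libraries, RELN averaged 16.2 ± 3.66 (SD, n = 18), LRP8 15.8 ± 7.02, DAB1 10.5 ± 2.25, VLDLR 6.72 ± 1.57, LHX5 3.84 ± 3.41, LHX1 3.42 ± 2.64 and TP73 1.83 ± 0.993. The ranges of neighbours in this order overlapped in each case: RELN spanned 10.9 to 21.9 FPKM and LRP8 4.2 to 30.1 FPKM, so these 2 could not be ordered beyond their spread. Per length, the ligand and the receptor LRP8 thus had the highest mean levels and TP73 the lowest.

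**Figure D1:**
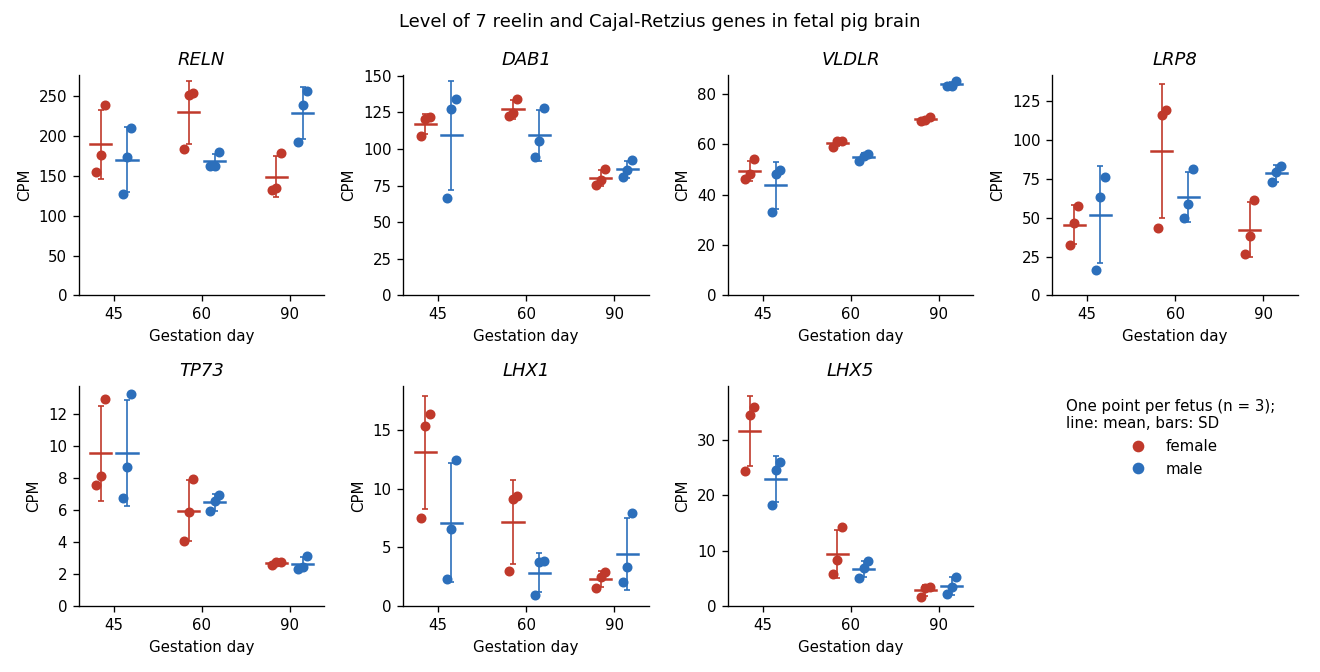
Level of each gene in CPM (vertical axes, from 0) against gestation day, with 1 point for each fetus, red for females and blue for males, lines for group means and bars for the SD (n = 3 a group). LHX5 and TP73 step down with gestation and VLDLR steps up, while RELN and LRP8 spread widely within groups and part by sex at GD90.

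Changes between days were tested within each sex and as the mean of both sexes with edgeR's quasi-likelihood test, with p adjusted over all genes tested by the Benjamini-Hochberg method, and a call is an adjusted p under 0.05. The GD60 libraries serve in both periods, so the 2 periods are not independent. From GD45 to GD60, 1 of the 7 genes was called in females, where 7.22% of all genes were, and 1 in males, where 5.61% were. For the mean of the sexes 3 were called, against 16.7% of all genes. From GD60 to GD90, 5 were called in females (27.1% of all genes), 2 in males (34.5%) and 4 for the mean of the sexes (42.4%). Groups did not overlap within females for 3 of the 7 in the first period (29.7% of all genes) and 6 in the second (45.2%), and within males for 2 (18.4%) and 4 (54.4%). With the sexes pooled, the days did not overlap for 1 of the 7 in the first period (7.96% of all genes) and 3 in the second (24.3%). Between GD45 and GD90 it was 3 (33.1%). Over the whole span from GD45 to GD90, 5 of the 7 were called, against 57.5% of all genes. By direction, for the mean of the sexes, 9.35% of all genes rose and 7.37% fell in the first period, 21.4% and 20.9% in the second, and 28.3% and 29.3% over the whole span. In bulk tissue a lower level can mean fewer cells of a type or less RNA per cell, and these data cannot tell the 2 apart.

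**Figure D2:**
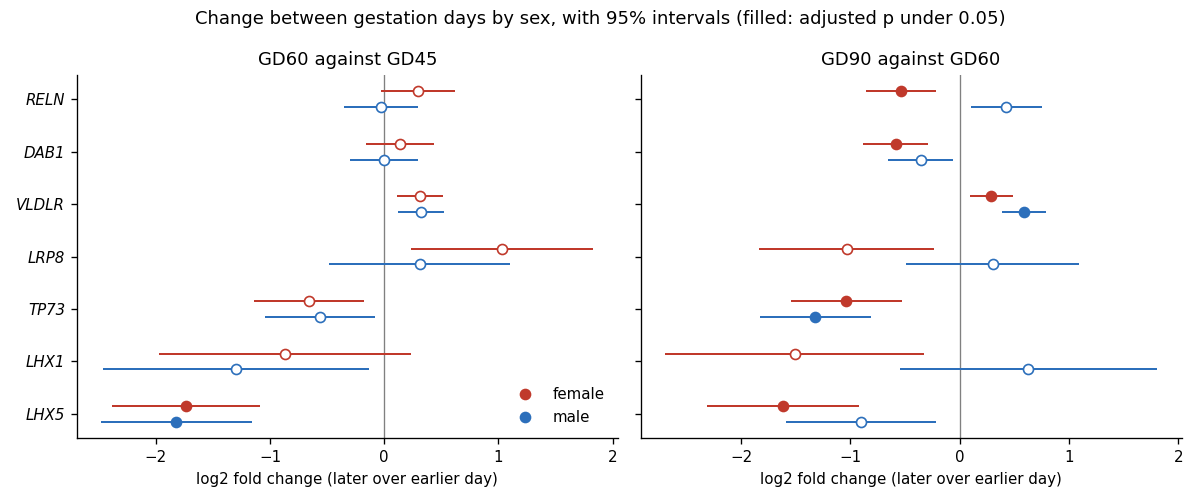
Log2 fold change of the later over the earlier day (horizontal axes) for each gene in females (red) and males (blue), with 95% intervals and filled points for an adjusted p under 0.05. LHX5 fell in both sexes in the first period, TP73 fell and VLDLR rose in both sexes in the second, and in the second period RELN lay below 0 in females and above 0 in males, where it did not pass the test.

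RELN encodes the ligand itself and lies on the minus strand of chromosome 9, chr9:103460857-103963965 on Sscrofa11.1, with 11686 bases of exons (ENSSSCG00000015426). At GD45 its level was 155, 176 and 239 CPM in females and 210, 173 and 128 CPM in males. At GD60 the females had 254, 252 and 184 CPM and the males 180, 163 and 163 CPM. At GD90 the females had 133, 179 and 135 CPM and the males 256, 192 and 239 CPM. RELN was therefore abundant on every day, females lay above males at GD60 and below them at GD90, and in neither case did the sexes overlap. At GD60 the sexes did not overlap for RELN and VLDLR, 2 of the 7, against 11.2% of all genes.

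For the mean of the sexes, RELN did not pass the test in any period, and the log2 difference between GD90 and GD45 was 0.08 (95% interval -0.15 to 0.31, adjusted p = 0.587). Within females RELN fell from GD60 to GD90 by 0.54 on the log2 scale (SE 0.16, adjusted p = 0.0224), and all 3 GD90 females lay below all 3 GD60 females. Within males the difference was 0.43 in the other direction (SE 0.16, adjusted p = 0.0542), also without overlap. RELN was the 1 gene of the 7 whose groups parted in opposite directions in the sexes, as did those of 1.38% of all genes. The fall in females lost its call without female GD60 replicate 3, female GD60 replicate 5, female GD90 replicate 2 or female GD90 replicate 9, each left out in turn (adjusted p = 0.0795, 0.0794, 0.0912 and 0.0966). The value in males passed the threshold with the likelihood ratio test (adjusted p = 0.0461), with DESeq2 (0.0382), with only the libraries compared (0.0116), without the GD45 litter of 8 (0.0244) and without male GD45 replicate 17 and female GD60 replicate 15 together (0.0206). It also passed without female GD45 replicate 18, male GD45 replicate 17, female GD60 replicate 15, female GD90 replicate 7 or male GD90 replicate 8, at values between 0.34 and 0.52 over all left-out libraries.

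The difference between the sexes in this change was tested directly. It was 0.96 on the log2 scale (SE 0.23, males minus females, unadjusted p = 0.00071, adjusted p = 0.175), so it did not pass the threshold in the quasi-likelihood test. It did with the likelihood ratio test (adjusted p = 0.0315), with DESeq2 (0.0181), with only the libraries compared (0.0389), without the GD45 litter of 8 (0.02), without male GD45 replicate 17 (0.0206) and without that library and female GD60 replicate 15 together (0.00365). The difference between males and females at GD90 was 0.56 (SE 0.16, adjusted p = 0.35, and 0.0478 with only the libraries compared), and the corresponding difference at GD60 was -0.40 (SE 0.16, adjusted p = 0.779). For Purkinje cell genes in this period, in males 5 of 8 rose and none fell (18.5% and 16.0% of all genes), with a median of 1.34, and in females none rose and 1 fell (13.7% and 13.4%), with a median of -0.03. Their summed level was 42.2 to 69.6 CPM in the GD60 males and 94.8 to 222 CPM in the GD90 males. In the females it was 61.0 to 134 CPM and 67.5 to 115 CPM on the same days. Of 7 cerebellar granule lineage genes tested, 0 rose and 0 fell in males (median 0.58), and 1 rose and 1 fell in females (median -0.67). Of 10 GABAergic interneuron genes, 2 rose and 4 fell in males (median -0.16), and 3 rose and 5 fell in females (median -0.26). The part of any of these cells in the RELN values was not tested.

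None of the 7 genes was called between the sexes at any day, where 0.0919%, 0.0980% and 0.0980% of all genes were called at GD45, GD60 and GD90. At an unadjusted p under 0.05 there were 0, 2 and 1 of the 7 (2.59%, 4.80% and 13.6% of all genes), and DESeq2 and the likelihood ratio test called 0 at each day. In the test of whether the change from GD60 to GD90 differed between the sexes, 0% of all genes were called and 19.8% had an unadjusted p under 0.05, as had 3 of the 7 (RELN, LRP8 and LHX1). For the change from GD45 to GD60 it was 0 of the 7 and 2.04% of all genes at an unadjusted p under 0.05, with 0% called. Groups of the 2 sexes did not overlap at GD90 for RELN, VLDLR and LRP8, 3 of the 7, against 36.0% of all genes, and at GD45 for none, against 5.79%.

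Where the RELN reads fell differed between the same libraries. In the exon table, which counts reads on single exons, the last RELN exon (ENSSSCE00000419012, exon 66, chr9:103460857-103461981, 1125 bases) held 65.7% of the RELN reads in male GD45 replicate 17 and 4.98% in male GD90 replicate 10. At GD90 it held 7.93%, 6.69% and 4.98% in the males and 29.2%, 10.6% and 17.9% in the females. The part of the RELN exons 5′ of their midpoint held 25.7%, 28.8% and 28.3% of the reads in the GD90 males and 4.19%, 19.7% and 8.20% in the GD90 females.

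The last exon did not separate the sexes as the remaining exons did. Its level at GD90 was 22.8, 15.1 and 13.6 CPM in the males and 37.2, 21.2 and 24.7 CPM in the females, while the remaining exons together were at 265, 211 and 260 CPM in the males and 90.4, 178 and 113 CPM in the females. Tested as a level across all exons, the last exon differed between males and females at GD90 by -0.996 on the log2 scale (SE 0.51, adjusted p = 0.414), against a median of 1.30 over the 49 RELN exons tested, of which 40 were higher in males. None of the 49 passed edgeR's quasi-likelihood test after adjustment, where 0.0287% of all exons did. At an unadjusted p under 0.05, 21 were higher in males and 0 lower. The shares of all exons above or below 0, or at an unadjusted p under 0.05, were not counted, so such counts have no baseline. Exons of 1 gene share the same libraries, and the median weighs an exon with few reads like any other. For the whole gene the difference at GD90 was 0.56. Within males from GD60 to GD90, 42 of the 49 were above 0 with 2 called higher (4.79% of all exons), and the last exon was at -1.22 (SE 0.51, adjusted p = 0.125). In females 46 of the 49 were below 0 with none called lower (1.29% of all exons) and 4 lower at an unadjusted p under 0.05, and the last exon was at -0.36 (SE 0.50, adjusted p = 0.752).

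**Figure D3:**
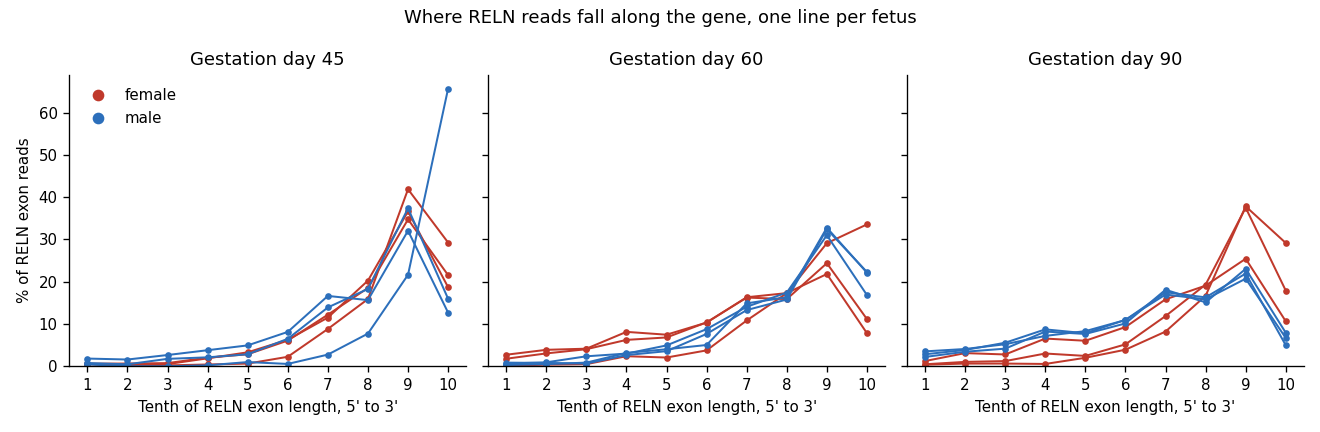
Share of RELN exon reads (vertical axes, %) in each of 10 equal stretches of the summed exon length from the 5′ to the 3′ end (horizontal axes), each exon placed whole by its midpoint so that the last point is the last exon alone, with 1 line for each fetus in red (female) or blue (male). At GD90 the 3 male lines lie together with 4.98% to 7.93% of reads in the last exon, while the 3 female lines end at 10.6% to 29.2%, and the line that ends highest at GD45 is male replicate 17.

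When the 5′ share of each library was added to the model as a covariate, a setting chosen after seeing the data, the RELN difference between males and females at GD90 was 0.33 (SE 0.15, adjusted p = 0.814) and that in the change from GD60 to GD90 was 0.63 (SE 0.21, adjusted p = 0.472). RELN in females was still called under this setting at -0.46 (SE 0.13, adjusted p = 0.00884), and the value in males was 0.17 (SE 0.15, adjusted p = 0.434). The GD90 males had a 5′ share above every other library, so in them it cannot be told apart from sex and day. With a trend on gene length removed from each library instead, the fall in females was -0.37 (adjusted p = 0.0523).

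**Figure D4:**
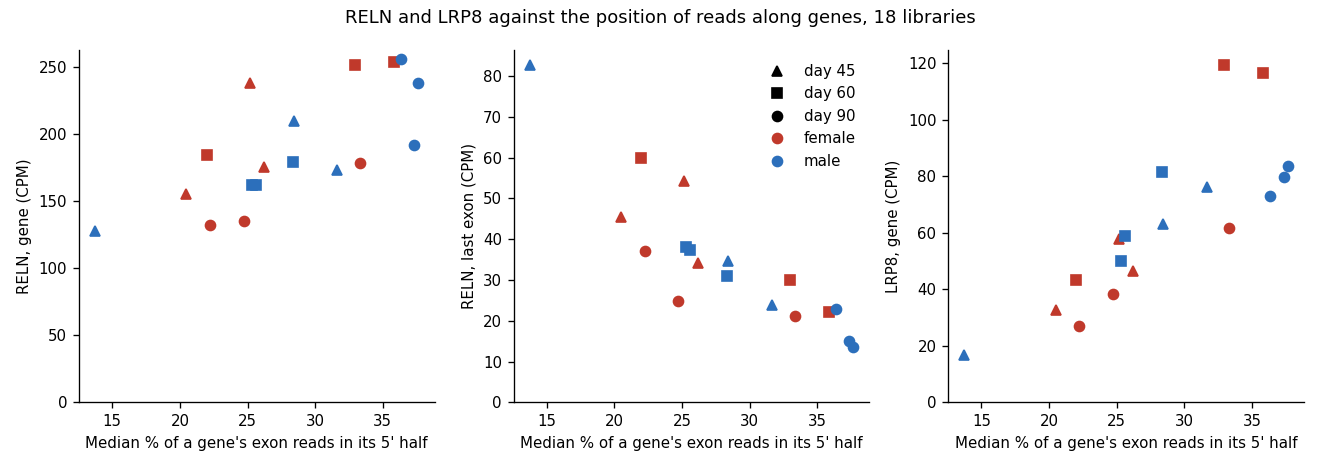
Level in CPM (vertical axes, from 0) of the RELN gene, of its last exon and of the LRP8 gene against the 5′ share (horizontal axes, %) in 18 libraries, with triangles, squares and circles for GD45, GD60 and GD90, red for females and blue for males. LRP8 and, with more scatter, RELN tend to be higher where the 5′ share is higher and the last RELN exon lower, with the GD90 males at the right between 36.4% and 37.6%.

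Exon usage, the change of each exon against the rest of its gene, was tested across 76800 exons. Of 92 exons of the 7 genes, 0 were called from GD45 to GD60 (0.0130% of all exons) and 0 from GD60 to GD90 (0.100%). At an unadjusted p under 0.05 there were 12 and 2, of which 11 and 1 were RELN exons and 1 each LRP8 exons. The share of all exons at that threshold was not counted, and exons of 1 gene share libraries, so these counts have no baseline. In the second period the last RELN exon differed from the rest of the gene by -0.73 on the log2 scale (unadjusted p = 0.0289, adjusted p = 1).

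RELN overlaps ORC5 (ENSSSCG00000015427), a subunit of the origin recognition complex, on the same strand with 527 exonic bases in common, and reads on those bases cannot be assigned to either gene with certainty. An unnamed gene on the opposite strand had 6 reads in all libraries together.

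The receptors VLDLR and LRP8 belong to the LDL receptor family, and DAB1 docks at the same short motif in the tail of each. The exon that holds the motif is shown for both genes, since it is the piece of the receptors that joins them to DAB1. Each is the sense strand of Sscrofa11.1 from 5′ to 3′, VLDLR from chr1:219180009-219180178 (minus strand, ENSSSCE00000044804, 170 bases) and LRP8 from chr6:158978267-158978439 (plus strand, ENSSSCE00000031725, 173 bases), both wholly coding in RefSeq, with the 18 bases that code for the docking motif in capitals.
VLDLR: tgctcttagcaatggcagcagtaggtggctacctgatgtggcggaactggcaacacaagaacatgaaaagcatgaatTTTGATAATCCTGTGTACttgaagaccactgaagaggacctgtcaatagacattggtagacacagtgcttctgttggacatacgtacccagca
LRP8: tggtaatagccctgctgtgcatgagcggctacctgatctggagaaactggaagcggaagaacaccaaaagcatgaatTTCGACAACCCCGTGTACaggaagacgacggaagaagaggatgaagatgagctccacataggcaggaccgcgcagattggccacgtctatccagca

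From the start of the exon to the end of the motif the pair matched at 67 of 95 bases (70.5%), and within the motif at 14 of 18. The motif was searched for with a pattern that fixed most of its bases, so the match within it was largely set in advance. The VLDLR exon had 27 to 84 reads a library in the exon table and the LRP8 exon 11 to 70, so this coding exon of both receptors was sampled in every brain.

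VLDLR (ENSSSCG00000005229, chr1:219173504-219210343) rose through gestation. It was at 48.4, 46.3 and 54.0 CPM in females and 49.9, 48.2 and 33.0 CPM in males at GD45, at 59.1, 61.4 and 61.5 CPM in females and 56.3, 55.2 and 53.5 CPM in males at GD60, and at 70.7, 69.7 and 69.4 CPM in females and 83.3, 85.0 and 83.1 CPM in males at GD90. Every GD90 brain lay above every earlier brain. The mean of the sexes rose by 0.32 on the log2 scale from GD45 to GD60 (SE 0.07, adjusted p = 0.00535) and by 0.44 from GD60 to GD90 (SE 0.07, adjusted p = 0.000112), 1.69-fold over the whole span (adjusted p = 1.4e-07).

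Within males the rise from GD60 to GD90 was 0.59 (SE 0.10, adjusted p = 0.000373). Within females it was 0.29 (SE 0.10, adjusted p = 0.0429), a call that was lost with 12 of the 18 libraries left out in turn, from each of the 3 days, with the likelihood ratio test (adjusted p = 0.0622), without TMM factors (0.252), without a filter (0.153) and with only the libraries compared (0.0547). The difference between the sexes in this rise was 0.30 (SE 0.14, adjusted p = 0.254). All 3 GD90 males lay above all 3 GD90 females, with a log2 difference of 0.20 (SE 0.10, adjusted p = 0.378), which was -0.02 with the length trend removed and 0.17 with the 5′ share as a covariate. An unnamed gene on the opposite strand shares 405 exonic bases with VLDLR and had 3 reads in all.

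LRP8 (ENSSSCG00000003848, chr6:158905460-158982873) varied widely within groups. At GD45 it was at 32.8, 46.4 and 57.8 CPM in females and 63.1, 76.0 and 16.7 CPM in males. At GD60 it was at 116, 119 and 43.4 CPM in females and 81.3, 58.9 and 50.0 CPM in males. At GD90 it was at 26.9, 61.8 and 38.4 CPM in females and 73.0, 79.6 and 83.7 CPM in males. The lowest level, in male GD45 replicate 17, and the lowest of GD60, in female replicate 15, belonged to the libraries that stood apart, which also had the lowest 5′ share of their days (13.7% and 21.99%).

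No change of LRP8 between days passed the test. The mean of the sexes differed by 0.67 from GD45 to GD60 (SE 0.29, adjusted p = 0.122) and by -0.37 from GD60 to GD90 (SE 0.29, adjusted p = 0.325), and females alone by -1.03 in the second period (SE 0.41, adjusted p = 0.0707). Without male GD45 replicate 17 and female GD60 replicate 15, left out together after seeing the data, these were 0.63 (adjusted p = 0.0177), -0.53 (0.0159) and -1.36 (0.00047), all past the threshold. The value in females also passed with all libraries kept under the likelihood ratio test (-1.03, adjusted p = 0.0426), DESeq2 (-1.03, 0.0393) and no filter (-1.03, 0.0472). It passed as well without the GD45 litter of 8 (-1.04, 0.0148), male GD45 replicate 17 (-1.03, 0.0161), female GD60 replicate 15 (-1.36, 0.0197) or female GD90 replicate 7 (-1.41, 0.0349). In the first period females were at 1.03 (SE 0.41, adjusted p = 0.147), which passed without the litter of 8 (0.0425), male GD45 replicate 17 (0.0364) or female GD60 replicate 15 (0.0485), and the mean of the sexes passed without female GD60 replicate 15 (0.83, 0.0422).

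With the 5′ share as a covariate the standard errors of LRP8 for the mean of the sexes were 0.08 to 0.10. LRP8 was then higher at GD60 than at GD45 by 0.29 (SE 0.08, adjusted p = 0.0153) and lower at GD90 than at GD60 by 0.72 (SE 0.08, adjusted p = 9.5e-07), with -0.63 in females (adjusted p = 0.000285) and -0.81 in males (adjusted p = 0.000218), where the model without the covariate gave 0.30 in males. The whole span gave -0.43 (adjusted p = 0.000905) in place of 0.31 (adjusted p = 0.378). The difference between males and females at GD90 was -0.17 in place of 0.84 (SE 0.41, adjusted p = 0.373), with all 3 males above all 3 females in CPM. The direction of LRP8 from GD60 to GD90 in males and over the whole span therefore depended on this setting. The GD90 males had a 5′ share above every other library, so for them the adjustment reaches past the other libraries. In these males the 5′ share cannot be told apart from sex and day.

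DAB1, the adapter that both receptors share (ENSSSCG00000003833, chr6:154936439-155374403), was steady to GD60 and lower at GD90. At GD45 it was at 121, 109 and 122 CPM in females and 127, 134 and 66.6 CPM in males. At GD60 it was at 134, 123 and 124 CPM in females and 128, 94.4 and 105 CPM in males, and at GD90 at 75.3, 86.0 and 78.7 CPM in females and 85.4, 92.3 and 80.9 CPM in males. Every GD90 brain lay below every GD60 brain, and at GD45 only male replicate 17 lay as low.

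The mean of the sexes fell from GD60 to GD90 by 0.47 on the log2 scale (SE 0.11, adjusted p = 0.00205), 0.58 in females (SE 0.15, adjusted p = 0.00873) and 0.36 in males (SE 0.15, adjusted p = 0.0777). The fall in males passed the test with the length trend removed (-0.57, adjusted p = 0.00139), with the 5′ share as a covariate (-0.57, adjusted p = 0.00642), with only the libraries compared (-0.36, adjusted p = 0.0299) and without male GD45 replicate 17 (-0.36, adjusted p = 0.00918) or its litter (-0.38, adjusted p = 0.00777). Tested as levels of single exons, 6 of the 33 DAB1 exons could be tested, and they gave no common direction. DAB1 had 121 to 294 reads a library on single exons, against 1011 to 2455 in the gene counts. Most reads behind the gene-level fall are thus not in this exon test, which cannot decide on that fall. For the mean of the sexes 3 were above and 3 below 0, with a median of -0.03, and the 1 exon called lower (6.08% of all exons), of 3410 bases, was at -1.05 (SE 0.31, adjusted p = 0.0301). In males 5 of the 6 were above 0, with a median of 0.66 and none called in edgeR's quasi-likelihood test. At an unadjusted p under 0.05 there were 1 higher and 1 lower, with no count over all exons. In females 5 were below 0, with a median of -0.61. The long exon in males was at -1.43 (SE 0.45, adjusted p = 0.0505), the single DAB1 exon below 0 there. From GD45 to GD60 DAB1 differed by 0.07 (95% interval -0.14 to 0.28, adjusted p = 0.714). From GD60 to GD90 DAB1 thus fell while VLDLR, a receptor it binds, rose.

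TP73 encodes a transcription factor that marks Cajal-Retzius neurons born at the cortical hem and is also active in multiciliated cells. It lies at chr6:65177682-65228992 (ENSSSCG00000025685). At GD45 it was at 7.60, 8.13 and 12.9 CPM in females and 8.69, 13.2 and 6.79 CPM in males. At GD60 it was at 5.92, 7.93 and 4.11 CPM in females and 6.98, 5.93 and 6.58 CPM in males, and at GD90 at 2.61, 2.77 and 2.79 CPM in females and 2.31, 3.14 and 2.45 CPM in males. The GD90 values were close together and below all earlier ones.

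TP73 fell by 0.61 on the log2 scale from GD45 to GD60 (SE 0.17, adjusted p = 0.0221). It fell by 1.18 from GD60 to GD90 (SE 0.18, adjusted p = 7.5e-05) in the mean of the sexes. The first call was lost without female GD45 replicate 18, male GD45 replicate 14, female GD60 replicate 3 or male GD60 replicate 6, each left out in turn (adjusted p = 0.0685, 0.0566, 0.0504 and 0.0555), and with only the libraries compared (0.0587). The second fall was called in females (1.04, SE 0.26, adjusted p = 0.0068) and in males (1.32, SE 0.26, adjusted p = 0.00114), and with each library left out. Of 8 multiciliated cell genes, none rose and 2 fell from GD60 to GD90 (21.4% and 20.9% of all genes), with a median of -0.32 (all genes -0.01). Over the whole span 1 rose and 2 fell (28.3% and 29.3% of all genes), with a median of -0.06 (all genes -0.03). Their summed level was 47.4 to 76.7 CPM at GD45, 52.98 to 69.0 CPM at GD60 and 39.8 to 59.0 CPM at GD90. The part of multiciliated cells in the fall of TP73 was not tested.

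LHX1 and LHX5 are closely related LIM homeodomain factors. The exon that codes for the end of the homeodomain is shown whole for each, with the coding sequence that follows the homeodomain in the same exon. Both are the plus strand of Sscrofa11.1, LHX1 from chr12:38455182-38455347 (ENSSSCE00000154066) and LHX5 from chr14:38451137-38451302 (ENSSSCE00000085520), 166 bases each and wholly coding in RefSeq, with the 12 bases that code for the core of the recognition helix in capitals.
LHX1: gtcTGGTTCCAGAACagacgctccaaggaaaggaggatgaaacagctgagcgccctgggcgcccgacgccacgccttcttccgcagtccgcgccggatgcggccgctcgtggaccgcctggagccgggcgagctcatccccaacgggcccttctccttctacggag
LHX5: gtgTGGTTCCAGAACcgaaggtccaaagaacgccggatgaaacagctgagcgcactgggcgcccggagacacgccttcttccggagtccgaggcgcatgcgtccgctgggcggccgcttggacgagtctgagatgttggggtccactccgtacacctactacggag

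The whole exons, which run past the homeodomain, matched at 122 of 166 bases (73.5%), with 44 differing bases. They matched at all 12 of the helix core, but the search pattern fixed most of those bases, so that match was largely set in advance. The LHX1 exon held 161 reads over all libraries and the LHX5 exon 201.

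LHX5 (ENSSSCG00000009869, chr14:38446730-38457177) had the steepest fall of the 7 genes. At GD45 it was at 24.4, 34.5 and 35.9 CPM in females and 25.9, 18.3 and 24.5 CPM in males. At GD60 it was at 8.25, 14.2 and 5.83 CPM in females and 8.13, 6.88 and 5.13 CPM in males, and at GD90 at 3.52, 3.28 and 1.75 CPM in females and 5.27, 2.15 and 3.44 CPM in males. The GD45 brains lay above all others, and only male GD90 replicate 1 (5.27 CPM) reached into the GD60 range.

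From GD45 to GD60 LHX5 fell by 1.74 on the log2 scale in females (SE 0.33, adjusted p = 0.00446) and by 1.82 in males (SE 0.34, adjusted p = 0.00384). With only the libraries compared, the male value was -1.83 and its call was lost (adjusted p = 0.0834). From GD60 to GD90 it fell by 1.61 in females (SE 0.35, adjusted p = 0.00279), while males were at -0.90 (SE 0.35, adjusted p = 0.0565), and the mean of the sexes fell by 1.26 (SE 0.25, adjusted p = 0.000666). The male value also passed the threshold with the likelihood ratio test and DESeq2 (adjusted p = 0.0346 in each), no filter (0.0473), only the libraries compared (0.0279) and without the GD45 litter of 8 (0.0418). It passed too (adjusted p = 0.0223 to 0.0492) without male GD45 replicate 14 or 17, female GD60 replicate 5 or 15, female GD90 replicate 9 or male GD90 replicate 1, each left out in turn. Over the whole span LHX5 fell by 3.03 (SE 0.25, adjusted p = 2.9e-08), to 0.122 of its GD45 level, between -3.22 and -2.91 with each library left out.

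LHX1 (ENSSSCG00000017692, chr12:38450708-38456139) was lower and more variable. At GD45 it was at 7.55, 16.4 and 15.4 CPM in females and 12.4, 6.59 and 2.31 CPM in males. At GD60 it was at 9.13, 9.38 and 3.04 CPM in females and 3.79, 3.86 and 0.965 CPM in males, and at GD90 at 2.89, 2.51 and 1.55 CPM in females and 7.94, 2.09 and 3.31 CPM in males. With the sexes pooled the days overlapped, while within females all 3 GD90 values lay below all 3 GD60 values. The single call was the fall over the whole span, by 1.52 (SE 0.42, adjusted p = 0.00518). For the mean of the sexes the steps between days did not pass, at -1.08 (SE 0.41, adjusted p = 0.0811) from GD45 to GD60 and -0.44 (SE 0.42, adjusted p = 0.431) from GD60 to GD90. The first step passed with DESeq2 (adjusted p = 0.0401), the likelihood ratio test (0.0499), the 5′ share as a covariate (0.00505) and without male GD45 replicate 17 (0.0234) or its litter (0.0468). In females the second step was -1.51 (SE 0.61, adjusted p = 0.0752). It passed with the likelihood ratio test (0.0425), DESeq2 (0.0348), only the libraries compared (0.0336) and without the GD45 litter of 8 (0.044), male GD45 replicate 17 (0.0392) or female GD60 replicate 15 (0.0362). In males the value of the second step was 0.63 (adjusted p = 0.434), and -0.09 without male GD90 replicate 1.

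Genes of other cells that use LHX1 and LHX5 moved with them in some libraries. The summed level of 6 HOX genes of the hindbrain and spinal cord was 6.04, 84.1 and 39.3 CPM in the GD45 females, 22.3, 0 and 2.64 CPM in the GD45 males, and at most 2.96 CPM at GD60 and 0.948 CPM at GD90. For the mean of the sexes all 6 fell from GD45 to GD60 (7.37% of all genes). Their median was -4.36 on the log2 scale, against -0.01 for all genes. By sex, 4 of the 6 fell in females (2.88% of all genes) and 0 in males (2.53%), with medians of -5.30 and -3.42. Fitted changes of genes this near 0 depend on the prior count. In male GD45 replicate 14, where these genes had 0 counts, which allows up to 0.196 CPM (3 counts in the library, counting error only), LHX5 was at 18.3 CPM and LHX1 at 6.59 CPM. In female GD45 replicate 13, where they summed to 84.1 CPM, LHX5 was at 34.5 CPM and LHX1 at 16.4 CPM.

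Of the 8 Purkinje cell genes, 5 rose and 2 fell from GD45 to GD90 (28.3% and 29.3% of all genes), with a median of 0.93 (all genes -0.03), and their sum was 28.02 to 99.1 CPM at GD45 and 67.5 to 222 CPM at GD90. The highest sum, 222 CPM, was in male GD90 replicate 1, which also had the highest cerebellar granule lineage sum of its day (250.0 CPM, others 87.1 to 172 CPM) and the highest LHX1, LHX5 and RELN of GD90. The part of cerebellar or caudal tissue in the LHX1, LHX5 and RELN levels was not tested beyond these values.

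The other Cajal-Retzius markers were a list of 12 genes chosen, like all lists here, with earlier results of these data known. From GD45 to GD60, 5 fell and none rose (7.37% and 9.35% of all genes), with a median of -0.94 (all genes -0.01). In the next period 6 fell and 1 rose (20.9% and 21.4%), with a median of -0.82 (all genes -0.01), and over the whole span 10 fell and 1 rose (29.3% and 28.3%), with a median of -1.49 (all genes -0.03). By sex in the second period, 7 fell and 1 rose in females (13.4% and 13.7%), with a median of -1.16, and 2 fell and 1 rose in males (16.0% and 18.5%), with a median of -0.32. The median difference of these changes, males minus females, was 0.97 (all genes 0.02), and 0% of all genes passed the test of such a difference. EBF2, an early B-cell factor of Cajal-Retzius neurons, fell by 1.70 (SE 0.28, adjusted p = 0.000484) and then by 1.39 (SE 0.31, adjusted p = 0.0017). EBF3 fell by 1.59 (SE 0.32, adjusted p = 0.0024) and by 1.21 (SE 0.33, adjusted p = 0.00732). CXCR4, the chemokine receptor that holds Cajal-Retzius cells under the meninges, fell in the second period by 1.40 (SE 0.17, adjusted p = 4.5e-06).

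CALB2, the calcium-binding protein calretinin, went the other way and rose from GD60 to GD90 by 1.36 (SE 0.14, adjusted p = 1.2e-06). Many interneurons make it too, and the falling genes of the list are likewise not confined to Cajal-Retzius cells in whole brain. TBR1, which also marks early-born cortical projection neurons, fell by 0.96 (SE 0.12, adjusted p = 5.7e-06) in the same period. Most but not all of the list thus fell over the span in which TP73 and LHX5 fell, while RELN did not pass the test.

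**Figure D5:**
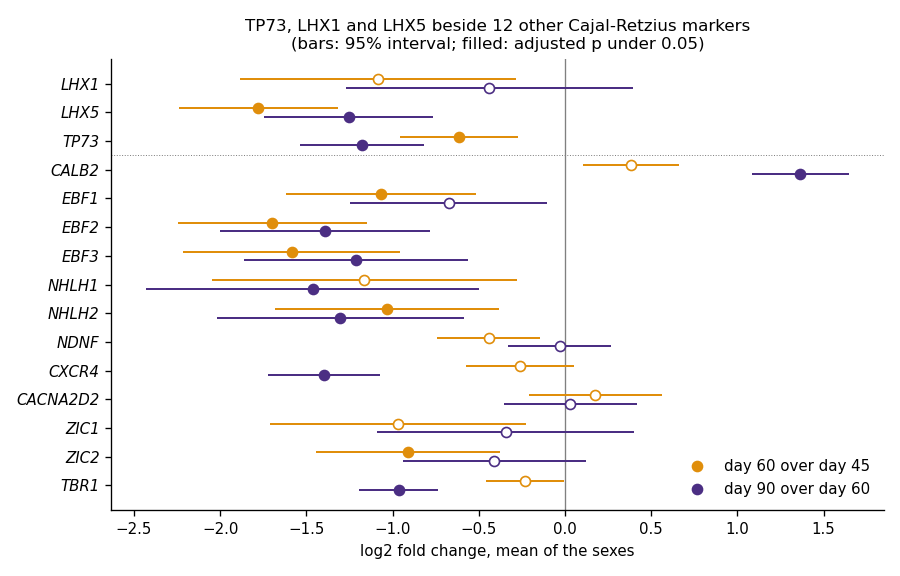
Log2 fold change, mean of the sexes (horizontal axis), of LHX1, LHX5 and TP73 above the dotted line and 12 other Cajal-Retzius markers below it, from GD45 to GD60 (orange) and from GD60 to GD90 (purple), with 95% intervals and filled points for an adjusted p under 0.05. Most points lie left of 0, LHX5, TP73, EBF2, EBF3 and NHLH2 are filled left of 0 in both periods, and CALB2 lies to the right with 1.36 in the second period.

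Genes of other cells that can make reelin were called in both directions, as were all genes. Of 10 GABAergic interneuron genes, 4 rose and 4 fell over the whole span (28.3% and 29.3% of all genes), with a median of 0.10 (all genes -0.03) and a summed level of 586 to 731 CPM at GD45 and 731 to 853 CPM at GD90. DLX1, a homeodomain factor of migrating interneuron precursors, fell from GD60 to GD90 by 1.49 (SE 0.09, adjusted p = 2.6e-09), while GAD1, the enzyme that makes GABA, was 0.96 higher at GD90 than at GD45 (SE 0.13, adjusted p = 1e-05). Of 7 cerebellar granule lineage genes tested, 1 rose and 3 fell over the whole span (28.3% and 29.3% of all genes), with a median of -1.22.

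Among 10 genes for proteins that cut or bind reelin, 3 rose and 4 fell from GD45 to GD90, near the 28.3% and 29.3% of all genes, with a median of -0.13 (all genes -0.03). ADAMTS4, a protease that cleaves reelin, rose from GD60 to GD90 by 2.36 (SE 0.16, adjusted p = 1.3e-08), and ADAMTS3, the main inactivating protease, rose from GD45 to GD60 by 0.68 (SE 0.10, adjusted p = 0.000185). EFNB1, an ephrin-B that binds reelin, fell by 0.90 (SE 0.11, adjusted p = 3.8e-05) and then by 1.39 (SE 0.11, adjusted p = 8.4e-08).

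Of 9 ligands and turnover factors of the receptors, 5 rose and 1 fell from GD45 to GD90 (28.3% and 29.3% of all genes), with a median of 0.47 (all genes -0.03). APOE, the apolipoprotein carried by both receptors, rose by 1.25 (SE 0.18, adjusted p = 0.000189) and then by 1.50 (SE 0.19, adjusted p = 7.2e-06). CLU, the lipoprotein clusterin, rose by 1.00 in the second period (SE 0.14, adjusted p = 3.3e-05). MYLIP, the ubiquitin ligase that degrades these receptors, rose by 1.36 over the whole span (SE 0.19, adjusted p = 1.6e-05), as VLDLR itself rose. THBS1, thrombospondin, fell from GD60 to GD90 by 1.02 (SE 0.16, adjusted p = 7.7e-05).

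Of the 9 LDL receptor family genes tested, which include VLDLR and LRP8, 2 rose and 3 fell over the whole span (28.3% and 29.3% of all genes). LRP1B, a large receptor of the family, rose by 1.48 (SE 0.20, adjusted p = 7.2e-06), and LRP5, a Wnt co-receptor, fell by 0.55 (SE 0.09, adjusted p = 0.000102). VLDLR had the lowest p of the list in every period of the mean of the sexes.

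Inside the cell, 1 of the 7 kinases and turnover factors of DAB1 changed over the whole span, where 57.5% of all genes did. SRC, a kinase that phosphorylates DAB1, fell from GD60 to GD90 by 0.75 (SE 0.08, adjusted p = 6.8e-07), while FYN, the other main kinase, was at 0.10 (SE 0.10, adjusted p = 0.448). Of 25 downstream genes, 10 rose and 7 fell from GD45 to GD90 (28.3% and 29.3% of all genes), with a median of 0.10, and 6 rose and 3 fell from GD60 to GD90 (21.4% and 20.9%), with a median of -0.02. NCK2, an adapter that binds phosphorylated DAB1, fell by 0.84 in the second period (SE 0.07, adjusted p = 1.4e-07). CRKL, a further such adapter, fell by 0.63 (SE 0.08, adjusted p = 8.7e-06). PIK3R1, a regulatory subunit of PI3 kinase, rose by 0.84 (SE 0.09, adjusted p = 1.4e-06), and CDK5R2, an activator of CDK5, by 1.04 (SE 0.15, adjusted p = 2.6e-05).

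Relatives of LHX1 and LHX5 fell as well. Of 10 LIM homeobox genes tested, LHX1 and LHX5 among them, 9 fell and none rose over the whole span (29.3% and 28.3% of all genes), with a median of -1.79 (all genes -0.03). ISL1, a factor of motor and striatal neurons, fell by 2.25 (SE 0.17, adjusted p = 6.8e-09), and LHX9 by 2.58 (SE 0.21, adjusted p = 2.1e-08). LHX5 thus fell together with most of its family. Of 8 genes of the meninges and blood, 1 rose and 6 fell over the whole span (28.3% and 29.3% of all genes), with a median of -0.88, and HBB, a globin, fell by 1.38 (SE 0.22, adjusted p = 4.3e-05).

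The genes most like each member were found by Pearson correlation of log2 CPM over the 18 libraries, given here as a description since fetuses share litters, days and library quality. LHX5 was most like EBF2 (r = 0.97), KIF20A (0.97) and BOC (0.97), and LHX1 was most like EBF1 (0.93), TFAP2B (0.91) and ZIC1 (0.90). Without male GD45 replicate 17, 1 of the 3 genes most like LHX1 stayed among its first 3. EBF1, EBF2 and ZIC1 are in the list of Cajal-Retzius markers. TP73 was most like DLL1 (0.98), DDX6 (0.97) and MSI1 (0.96).

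VLDLR was most like SIDT1 (0.98), PRKCB (0.98) and DOCK9 (0.97), and DAB1 was most like SLAIN2 (0.95), RNF182 (0.94) and KDSR (0.94). LRP8 was most like TENM2 (0.98), KMT2A (0.98) and DCX (0.97). RELN had the weakest partners, ERCC6 (0.87), HUWE1 (0.86) and NSD1 (0.84). Among the members themselves, TP73 and LHX5 went together (r = 0.85), as did RELN and LRP8 (0.75), and VLDLR went against TP73 (-0.90) and LHX5 (-0.88). RELN and LHX5 had an r of 0.04.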

How the data were processed

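The authors trimmed reads with Trimmomatic, aligned them with HISAT2 to Sscrofa11.1 and counted them with featureCounts. Strand and multi-mapping options are not given in the sources used here. The authors deposited raw read counts per gene, exon and transcript, in 22 columns for 18 libraries. Repeat runs of 4 libraries were summed, and transcript counts were not used. Gene counts were filtered with filterByExpr, scaled with TMM factors and fitted with edgeR 4.0.16 (R 4.3.3) as 1 model of 6 groups of sex and day. Standard errors came from the F statistic. Log2 CPM used a prior count of 2, and FPKM the deposited gene length. Exon usage was tested with diffSpliceDGE. The exon table held 6988796 to 9214794 counts a library. Alternatives were DESeq2 1.42.0, the likelihood ratio test, other filters and scalings, litter as a block, litter sums and left-out libraries. Scripts were tested on simulated counts.

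The members and lists were chosen with earlier results of these data known. Named genes were the members, up to 4 genes of each list with the lowest p in the comparison described, genes overlapping a member, and the 3 genes most like each member. Of the listed genes, AKT1, CDK5 and LRP1 were not found by name, and some were left out and are not reported here. The covariate, the exon level test and the joint removal of 2 libraries were chosen after seeing the data. Sequences were read from the RefSeq genome of Sscrofa11.1 at the exon coordinates of the deposited table, and the docking motif and helix core were found by script, in frame. Litter was inferred from day and litter size. The correlation of litter-mates' deviations from their group means was -0.0932 to 0.4243, over 0.1 in 5 of 9 litters. Litter was not a term of the main model, so litter-mates were treated as independent there. With counts summed by litter, 21 results of the members between days, for the mean of the sexes, kept their direction and call.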

Additional observations from a re-analysis of the deposited data

Results flagged for a closer look

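Within each day, 21 sets of 6 libraries (7 genes, 3 days) were searched for a library far from the other 5. The cutoff is one that about 1 in 20 sets of independent, normally spread values would pass, and 4 were found. The sets share libraries and mix the sexes, so no excess over chance can be read from this number. DAB1 was at 66.6 CPM in male GD45 replicate 17, where the next library was at 109 CPM. VLDLR was at 33.0 CPM in the same library, where the next was at 46.3 CPM, and this library also had the lowest 5′ share of all (13.7%). LHX1 was at 7.94 CPM in male GD90 replicate 1, where the next was at 3.31 CPM, and this library had the highest sum of Purkinje cell genes (222 CPM). LHX5 was at 14.2 CPM in female GD60 replicate 5, where the next was at 8.25 CPM.

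From GD60 to GD90, all 3 GD90 females lay below all 3 GD60 females for RELN and all 3 GD90 males above all 3 GD60 males, a pattern of opposite groups that 1.38% of all genes had. The change in females passed the test (-0.54, adjusted p = 0.0224) and that in males did not (0.43, adjusted p = 0.0542). The difference of the changes, males minus females, was 0.96 on the log2 scale (adjusted p = 0.175 with edgeR's quasi-likelihood test). With the 5′ share, which differed between the same libraries, as a covariate, the difference was 0.63 (adjusted p = 0.472).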

How the results depend on the processing

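Counts of called members depended on the setting. From GD45 to GD60, 1 was called in females, and 2 with DESeq2, 3 without the GD45 litter of 8, 3 without male GD45 replicate 17 and female GD60 replicate 15 together, and 3 with the 5′ share as a covariate (1 to 3 with each library left out). In males 1 was called, and 2, 0 (only the libraries compared), 2 and 2 with DESeq2, the libraries compared, without the 2 libraries and with the covariate. For the mean of the sexes 3 became 5 without the 2 libraries and 5 with the covariate. From GD60 to GD90 the female count of 5 was 3 to 7 with each library left out. The male count of 2 was 4 with the likelihood ratio test, DESeq2 and the covariate, 5 with only the libraries compared, without the litter of 8 and without the 2 libraries, and 2 to 5 with each library left out. Between the sexes at GD90, 0 became 1 with only the libraries compared and 2 without the 2 libraries. For the difference between the sexes in the change from GD60 to GD90, 0 became 1 with the likelihood ratio test, DESeq2, only the libraries compared and without the litter of 8, 3 without the 2 libraries, and 0 to 1 with each library left out. The cause was not tested.

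Directions that turned were all of values that had not passed the test in the main model. With the covariate, the turned LRP8 values passed edgeR's quasi-likelihood test in males from GD60 to GD90 (adjusted p = 0.000218) and over the whole span (0.000905). From GD45 to GD60 in males, DAB1 was at 0.0019 with a filter of more than 1 CPM in 3 libraries and 0.0096 with the first run only (-0.21 to 0.13 with each library left out), LRP8 at -0.0687 without the litter of 8 and -0.0861 without the 2 libraries (-0.0862 to 0.655 with each library left out), and RELN ranged from -0.133 to 0.0943. For the mean of the sexes DAB1 was at -0.0256, -0.0459 and -0.0004 without the litter, without the 2 libraries and with the covariate (-0.0393 to 0.134 with each library left out). From GD60 to GD90 in males, LRP8 was at -0.81 and LHX1 at -0.29 with the covariate (LHX1 -0.0931 to 0.949 with each library left out). From GD45 to GD90, RELN was at -0.0480 with the length trend removed and -0.11 with the covariate, and LRP8 at -0.43 with the covariate. Between the sexes, VLDLR was at 0.0194 (GD60) and -0.0165 (GD90) with the length trend removed and LRP8 at 0.0052 and -0.17 with the covariate. The difference in change was -0.0360 for VLDLR with the length trend removed and -0.18 for LRP8 with the covariate.

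Counts over all genes moved too: the difference in change from GD60 to GD90 went from 0 to 4627 genes and the sexes at GD90 from 16 to 2024 without the 2 libraries. With litter as a replicate block, the RELN difference was 0.57 at GD90 and 0.96 in the change, and 0 members were called. Groups of 3 and low counts of LHX1 and TP73 limit precision.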
